A study of Homo sapiens with 24 samples.

Results

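The genes described here are 8 factors of the RAN GTPase cycle and of mRNA export through the nuclear pore: RAN, RANBP1, RANGAP1, RCC1, RANBP3, NUTF2, NXF1 and NXT1. They were chosen by gene symbol, and all 8 were found among the 25277 symbols of the expression table, each on a single line. All 8 were above the lowest level recorded, 1 FPKM (fragments scaled to transcript length and library size), in all 24 samples, so no member was lost to the filter on low values. The cells were DU145DR and 22Rv1DR, derivatives of the human prostate cancer lines DU145 and 22Rv1 that are known as docetaxel-resistant models. Each line received siRNA construct 1 or construct 2 against POM121, a membrane-anchored protein of the nuclear pore, or a control that the labels do not describe further. The 24 samples were 12 poly(A) libraries read on 2 lanes each, with 2 libraries in each of the 6 groups. A library code ends in A for control, B for construct 1 and C for construct 2, after the number 1 or 2 for DU145DR and 4 or 5 for 22Rv1DR (1A is a DU145DR control). The DU145DR libraries and the 22Rv1DR control 4A were read on lanes 1 and 2, the other 22Rv1DR libraries on lanes 3 and 4. Effects of lane therefore cannot be fully told apart from those of line or, in 22Rv1DR, of treatment. Whether a group's libraries were separate cultures is not stated, so p-values reflect the spread between libraries, which may be technical.

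Transport through the pore is given its direction by RAN. RCC1, bound to chromatin, loads RAN with GTP in the nucleus, and RANGAP1, held at the cytoplasmic side of the pore, makes RAN hydrolyse that GTP, with RANBP1 as its helper protein. RAN-GTP releases cargo from importins and holds cargo on exportins, RANBP3 assists export by the exportin XPO1, and NUTF2 carries RAN-GDP back into the nucleus. Bulk mRNA leaves by another carrier, the dimer of NXF1 and NXT1, which binds the pore without RAN.

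Sequences upstream of the members' start sites are shown because some members moved together from library to library. RefSeq promoters (GRCh38.p14, a later build than the hg19 of the study, 250 bases before to 50 after each start) were at hand for 7 members with 10 start sites; RANBP1 had no entry. For this, 5 short words were searched on both strands in all 35116 promoters of that length: CACGTG (an E-box), GGGCGG (known as the GC box), CCGGAA (the core bound by ETS factors), CCAAT (a box bound by the factor NF-Y) and TATAAA (the TATA box). Each stretch below is 30 bases, 5′ to 3′ on the gene's strand, with the matched letters in capitals:
RAN, chr12:130871950-130871979, plus strand: gcgcacgcgcgggcCACGTGGGCGGgcgcc
NUTF2, chr16:67846842-67846871, plus strand: gctcatgCCGGAAaggggGGGCGGtgggac
RANGAP1, chr22:41302409-41302438, minus strand: ctgatcctgcgaCCGGAAacgcccccctgc
RCC1, first start, chr1:28505982-28506011, plus strand: acattccaggacTTCCGGgcacttcgtaag
RCC1, second start, chr1:28518024-28518053, plus strand: tggttgttagtcCACGTGtcccgatttggg
RANBP3, chr19:5978325-5978354, minus strand: ccggccctttccCCGCCCtctcagtcggcg
NXF1, chr11:62805504-62805533, minus strand: tttctccGGGCGGcggcaCCGCCCacagcc
NXF1, chr11:62805453-62805482, minus strand: cgtgctttgctgTATAAAtgcggtggcgcc
NXT1, chr20:23350696-23350725, plus strand: acacatGGGCGGagttagccTTCCGGcccg

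In RAN the E-box and the GC box overlap by a letter. By the GENCODE v29 annotation of the same assembly, the stretches of RAN, NUTF2, NXF1 and the first start of RCC1 also lie in the 5′ untranslated region of a longer transcript of the gene, that of the second RCC1 start lies within the gene outside its untranslated and coding parts, and those of RANGAP1, RANBP3 and NXT1 lie in no transcript of their gene. The E-box was in RAN and RCC1, against 7.26% of all promoters. The GC box was in 6 of the 7 members (all but RCC1), against 45.0% of promoters, and the ETS core in RANGAP1, RCC1, NUTF2 and NXT1, against 17.2%. CCAAT was found in NXT1 (34.6% of promoters) and TATAAA in NXF1 (11.5%). A member was counted with a match at any of its start sites, while the percentages count single promoters, so they are not like for like. These matches describe letters in the windows and say nothing of binding.

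The knockdown, the identity of the lines and the libraries were checked first. POM121 was at 21.6 and 21.3 FPKM in the DU145DR controls and 12.5 to 13.5 FPKM in its 4 siPOM121 libraries, and at 38.5 and 37.8 FPKM in the 22Rv1DR controls against 6.73 to 7.81 FPKM. Its near-identical paralog POM121C was also lower (-0.71 ± 0.06 in DU145DR and -2.58 ± 0.06 in 22Rv1DR, log2), and reads of the pair may be shared. Of 10 epithelial and prostate markers, 22Rv1DR expressed all, while in DU145DR those above the floor included KRT8, KRT18 and EPCAM, and those listed at 0 in all 6 libraries included CDH1, CLDN7, KLK3, FOLH1 and HOXB13. Of 12 markers of fibroblasts, endothelium and blood cells, 10 in DU145DR and 9 in 22Rv1DR were listed at 0 throughout; the exceptions were COL1A1 and CD68 in both lines and LUM in 22Rv1DR. Their summed level was 15.9 to 16.8 FPKM in DU145DR controls and 14.3 to 16.4 FPKM with siPOM121, and 52.3 to 53.6 FPKM in 22Rv1DR controls and 54.5 to 66.0 FPKM with siPOM121; their part in the results was not tested. Libraries 4C and 5C, both construct 2 in 22Rv1DR, stood apart from each other. The SD of their log2 difference over all genes was 0.32, against 0.21 to 0.27 in the other 5 pairs, and ribosomal protein genes held 17.2% of summed FPKM in 4C and 11.2% in 5C, against 13.7% and 13.9% in the controls of that line and 15.3% and 15.8% with construct 1. Because all groups share an estimate of the spread, these 2 libraries also widen the errors in DU145DR, and results are given with and without them. Leaving out a single library leaves its group with 1, which adds nothing to the estimate of the spread. Without 4C or 5C, the values of construct 2 in 22Rv1DR rest on the other library alone.

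**Figure D1:**
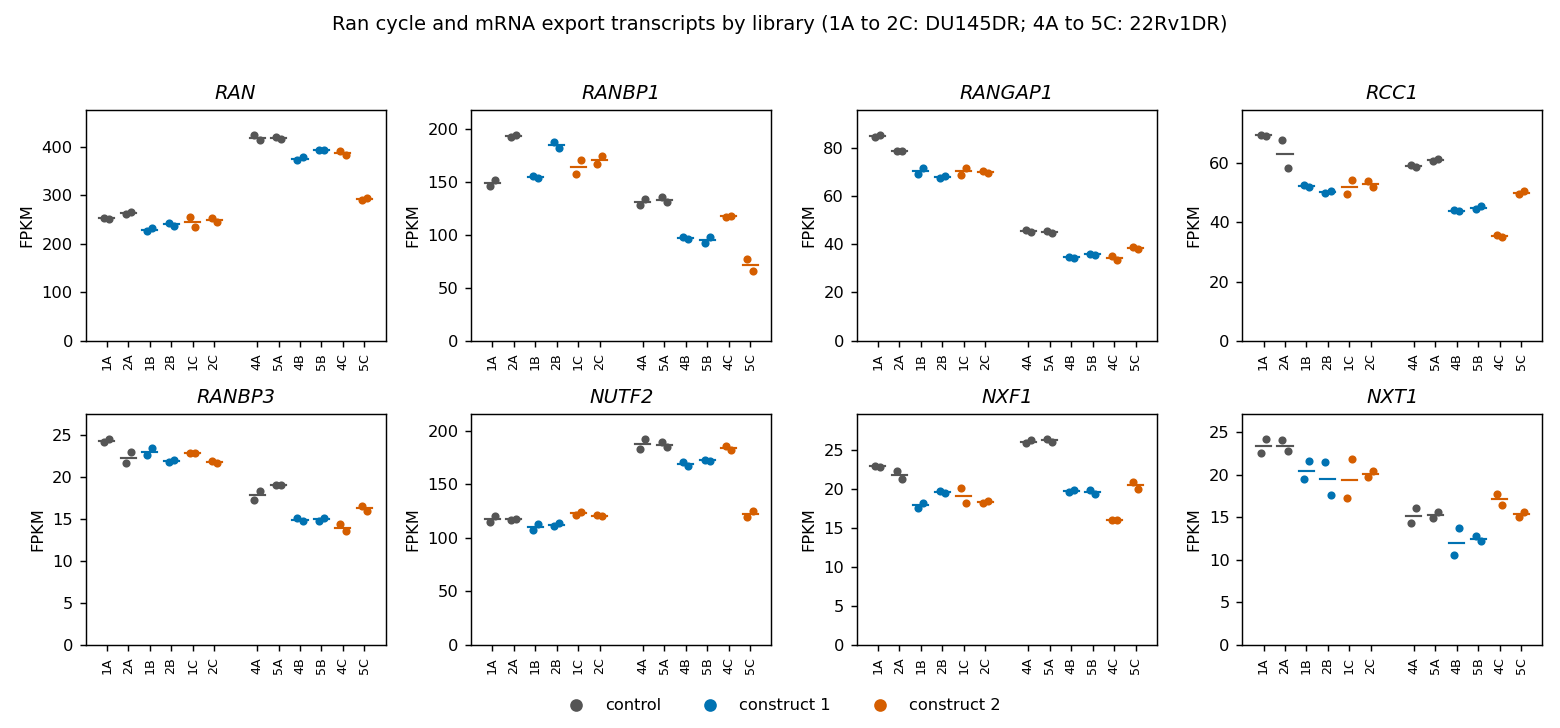
FPKM of the 8 members (y axes, each from 0) in the 12 libraries (x axis); dots are the 2 lanes of a library, bars the mean of the lanes, and colors the control, construct 1 and construct 2 groups. RAN and NUTF2 are higher in 22Rv1DR and RANGAP1 higher in DU145DR, and 5C is low for RAN, RANBP1 and NUTF2 while 4C is low for RCC1 and NXF1.

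The members spanned a wide range of levels. RAN was the most abundant in both lines, at 246 FPKM over the 6 libraries of DU145DR and 378 FPKM in 22Rv1DR, which placed it at percentiles 98.6 and 98.9 of symbols above the floor. RANBP1 (169 and 105 FPKM) and NUTF2 (117 and 169 FPKM) followed, with RANBP1 ahead of NUTF2 in DU145DR and behind it in 22Rv1DR. The enzymes that set the nucleotide on RAN were lower, with RANGAP1 at 73.4 and 38.6 FPKM and RCC1 at 56.2 and 48.2 FPKM. RANBP3 (22.7 and 16.1 FPKM), NXF1 (19.9 and 21.1 FPKM) and NXT1 (21.0 and 14.4 FPKM) were the lowest, between percentiles 63.2 and 73.2. In DU145DR controls the 3 lowest lay at 21.8 to 24.4 FPKM and overlapped. In 22Rv1DR controls NXF1, RANBP3 and NXT1 were ordered without overlap.

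Control cells of the lines were compared next. In control libraries, limma's test with Benjamini-Hochberg adjustment called 5 of the 8 members, a smaller share than the 83.0% of all genes tested. RAN was higher in 22Rv1DR by 0.70 ± 0.10 on the log2 scale (SE, adjusted p = 0.000142), at 419 and 418 FPKM against 253 and 264 FPKM in DU145DR. NUTF2, its importer, was higher by 0.67 ± 0.14 (adjusted p = 0.00145), at 188.0 and 187 FPKM against 118 and 117 FPKM. RANGAP1 was lower in 22Rv1DR, with a log2 difference of -0.85 ± 0.06 (adjusted p = 5.22e-07), at 45.3 and 45.1 FPKM (4A and 5A) against 84.9 and 78.6 FPKM. NXT1 (-0.62 ± 0.06, adjusted p = 4.37e-06) and RANBP3 (-0.34 ± 0.08, adjusted p = 0.00258) were also lower in 22Rv1DR by the same test. RCC1 (-0.14 ± 0.13, adjusted p = 0.327), RANBP1 (-0.36 ± 0.21, adjusted p = 0.146) and NXF1 (0.23 ± 0.10, adjusted p = 0.0531) did not pass it. With the medians of the libraries aligned, the median difference of all genes moved from -0.020 to 0.15 and RCC1 changed sign to 0.034. Without both 4C and 5C all 8 members passed, against 83.0% of all genes called in the reported fit.

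In DU145DR, siPOM121 lowered transcripts of 3 members: both enzymes that charge and discharge RAN, RCC1 and RANGAP1, and NXT1, the small subunit of the mRNA exporter. By the fitted means they fell by 14.8% (RANGAP1), 15.1% (NXT1) and 21.7% (RCC1). RAN itself, RANBP1, RANBP3, NUTF2 and NXF1 did not pass the test. Of all genes tested, 23.9% were called in either direction and 9.37% were lower, against 3 of 8 members lower and none higher. The members' median log2 fold change was -0.17, and that of all genes was 0.

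RCC1, the exchange factor, stood at 69.4 and 63.1 FPKM in the DU145DR controls, 52.4 and 50.2 FPKM with construct 1 and 51.9 and 52.9 FPKM with construct 2. All 4 siPOM121 libraries were below both controls. Its log2 fold change, as the mean of both constructs, was -0.35 ± 0.11 (SE, limma, adjusted p = 0.0465). RCC1 did not pass the threshold of 0.05 for either construct alone (limma, adjusted p = 0.0750 and 0.108), and its call for the mean was kept in 11 of 25 alternative settings and lost in 14, each with the same direction.

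RANGAP1, the GTPase-activating protein, was at 84.9 and 78.6 FPKM in controls, 70.5 and 67.9 FPKM with construct 1 and 70.1 and 69.9 FPKM with construct 2. The groups did not overlap, and the log2 fold change was -0.23 ± 0.05 (limma, adjusted p = 0.0124). Construct 1 (-0.24, adjusted p = 0.0235) and construct 2 (-0.22, adjusted p = 0.0363) each passed limma's test, but the call was lost in 5 of 25 alternative settings for construct 1 and 12 of 25 for construct 2. NXT1 stood at 23.3 and 23.4 FPKM in the controls, at 20.5 and 19.5 FPKM with construct 1 and at 19.4 and 20.1 FPKM with construct 2. Again the groups did not overlap, and the log2 fold change was -0.24 ± 0.05 (limma, adjusted p = 0.00957). Constructs 1 (-0.23, adjusted p = 0.0249) and 2 (-0.24, adjusted p = 0.0214) gave NXT1 nearly the same value in limma's fit, and each call was lost in 7 of 25.

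NXF1, the large subunit that NXT1 binds, gave 22.9 and 21.8 FPKM in the DU145DR controls, 17.9 and 19.6 FPKM with construct 1 and 19.1 and 18.4 FPKM with construct 2. It did not overlap between groups, yet its log2 fold change of -0.25 ± 0.08 missed the threshold in limma's test (adjusted p = 0.0591). RAN was at 253 and 264 FPKM in controls and 229, 240.2, 245 and 249 FPKM with siPOM121 (1B, 2B, 1C, 2C), a log2 fold change of -0.10 ± 0.09 (limma, adjusted p = 0.494). Those ranges lay next to each other without overlap. With RAN, RCC1, RANGAP1, NXT1 and NXF1, 5 of 8 members had all siPOM121 libraries below both controls, against 22.0% of all genes tested.

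The other members overlapped between groups. RANBP1 differed more between the 2 controls (149 and 193 FPKM) than between any groups, with 155 to 185 FPKM in the siPOM121 libraries and a log2 fold change of -0.013 ± 0.18 (95% interval -0.43 to 0.41). RANBP3 was at 24.4 and 22.4 FPKM in controls and 21.8 to 23.1 FPKM with siPOM121 (-0.058 ± 0.068). NUTF2 was at 118 and 117 FPKM in controls, 110.2 and 112 FPKM with construct 1 and 123 and 121 FPKM with construct 2 (-0.015 ± 0.12). The siRNA libraries therefore lay on either side of the NUTF2 controls, lower with construct 1 and higher with construct 2, and the difference between constructs of 0.13 ± 0.14 did not pass limma's test (adjusted p = 1).

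The count in DU145DR rested on the libraries in the fit. That of all genes called also changed without 1A, 2A, 4C, 5C or both of the last, so such shifts were not particular to the members. Without control 1A no member passed and without 2A 1 did (RANGAP1, adjusted p = 0.0306 in limma), while without 4C, 5C or both 5 passed, NXF1 (adjusted p = 0.0019) and RAN (adjusted p = 0.033 at most) in addition.

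**Figure D2:**
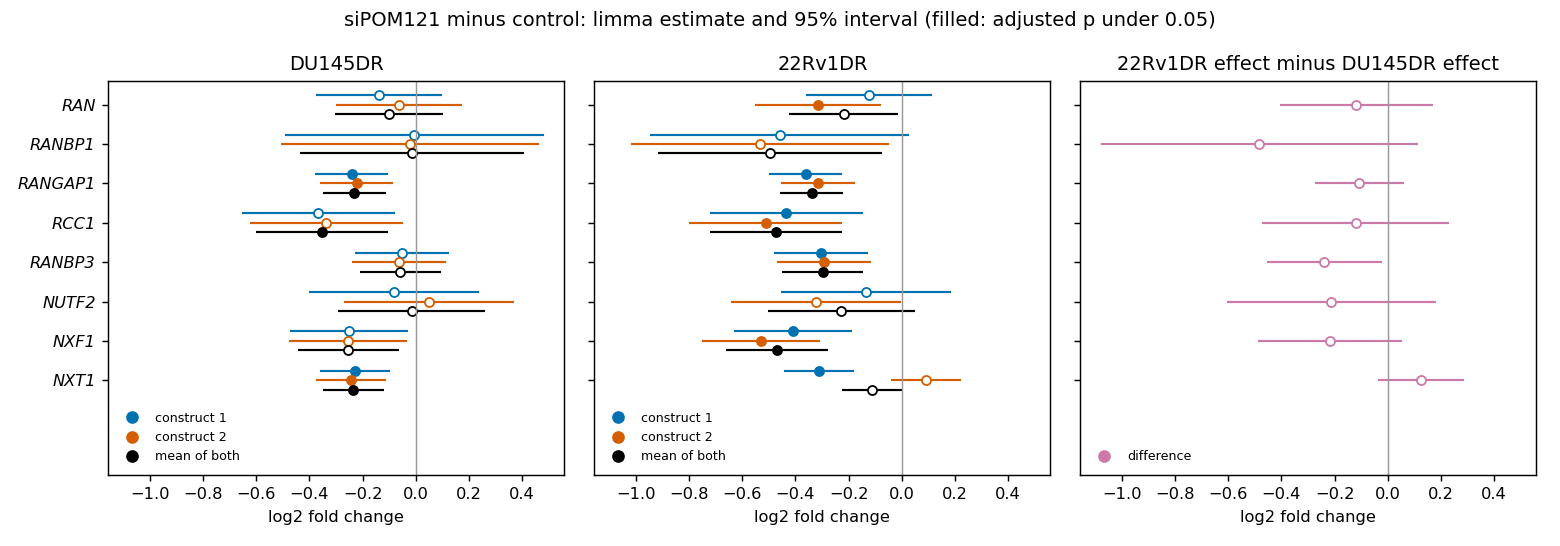
Limma's log2 fold change (x axis) of siPOM121 against control for each member, with its 95% interval as a line, in DU145DR (left) and 22Rv1DR (middle) for each construct and their mean, and the difference between the lines (right); filled points passed the adjusted p of 0.05. All 8 means lie below 0 in both lines, 3 are filled in DU145DR and 4 in 22Rv1DR, and NXT1 lies at -0.31 with construct 1 and 0.09 with construct 2 in 22Rv1DR.

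In 22Rv1DR, where POM121 itself fell further (line difference -1.66 ± 0.07, limma, adjusted p = 2.84e-06), 4 members were lowered: RANGAP1, RCC1, RANBP3 and NXF1. RANGAP1 and RCC1 were lowered in both lines. By the fitted means RANBP3 fell by 18.6%, RANGAP1 fell by 20.9%, NXF1 fell by 27.8% and RCC1 fell by 27.9%. RAN, RANBP1, NUTF2 and NXT1 did not pass the test. The background was higher here as well, with 35.5% of all genes called and 20.4% lower, against 4 of 8 members lower and none higher. The members' median was -0.32 on the log2 scale, against -0.016 for all genes.

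RCC1 was at 59.1 and 61.0 FPKM in the 22Rv1DR controls, 44.0 and 44.9 FPKM with construct 1 and 35.4 and 50.1 FPKM with construct 2. Every siPOM121 library was below both controls, and the log2 fold change was -0.47 ± 0.11 (limma, adjusted p = 0.00983). RANGAP1 was at 45.3 and 45.1 FPKM in controls, 34.6 and 35.7 FPKM with construct 1 and 34.3 and 38.5 FPKM with construct 2. Its groups did not overlap either (-0.34 ± 0.05, limma, adjusted p = 0.00138).

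NXF1 gave 26.1 and 26.2 FPKM in controls, 19.8 and 19.6 FPKM with construct 1 and 16.0 and 20.5 FPKM with construct 2. That is a log2 fold change of -0.47 ± 0.08 (limma, adjusted p = 0.00286) with no overlap. RANBP3, the XPO1 cofactor, was at 17.9 and 19.1 FPKM in controls, 14.9 and 15.0 FPKM with construct 1 and 14.0 and 16.3 FPKM with construct 2. All its siPOM121 values were below the controls, and the log2 fold change was -0.30 ± 0.07 (limma, adjusted p = 0.00874).

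RAN itself and RANBP1 and NUTF2, which bind it, did not pass. RANBP1 was at 131 and 133 FPKM in the 22Rv1DR controls, 97.0 and 95.4 FPKM with construct 1 and 117 and 71.2 FPKM with construct 2. Its log2 fold change was as large as that of RCC1, -0.50, but its SE was 0.18 and limma's test was not passed (adjusted p = 0.0666). RAN was at 419 and 418 FPKM in controls, 376 and 394 FPKM with construct 1 and 387 and 293 FPKM with construct 2 (-0.22 ± 0.09, limma, adjusted p = 0.0895). NUTF2 was at 188.0 and 187 FPKM in controls, 169 and 173 FPKM with construct 1 and 184 and 123 FPKM with construct 2 (-0.23 ± 0.12, limma, adjusted p = 0.184). In each of these 3 genes all siPOM121 libraries were below both controls and 5C was the lowest by a wide gap. Non-overlapping lower values were thus seen in 7 members, all but NXT1, against 27.3% of all genes tested.

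These results rested in part on 4C and 5C. When single libraries were left out, RAN ran from -0.32 to -0.12, NUTF2 from -0.37 to -0.08 and RANBP1 from -0.68 to -0.32. Without both, which leaves construct 1 alone, 8 members passed, with RAN at -0.12, NUTF2 at -0.13 and RANBP1 at -0.46. The count of all genes called changed with the libraries left out as well. Their share in the fit without 4C and 5C is not reported here, so the 8 calls are not read as particular to the members. When 22Rv1DR was fitted on its own only RANGAP1 passed (limma, adjusted p = 0.0438), and 3 did without control 4A (RCC1 did not) and 2 without 5A (RCC1 and RANBP3 did not).

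The constructs were compared within each line. In DU145DR no member passed the test between them (limma, 0.0220% of all genes called, and 0 members at an unadjusted p under 0.05), and NXT1 and RANGAP1 passed against control with each construct, when 19.8% of genes were called for construct 1 and 16.6% for construct 2. In 22Rv1DR, RANGAP1, RCC1, RANBP3 and NXF1 passed with each construct, NXT1 with construct 1 and RAN with construct 2, so 5 members passed each time, against 27.1% and 35.1% of genes. RAN's call for construct 2 (-0.31 ± 0.10, limma, adjusted p = 0.0430) was lost in 18 of 24 alternative settings, among them leaving out any single library but 4C: it was -0.52 without 4C and -0.11 without 5C. RCC1's call for construct 1 was lost in 10 of 25.

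NXT1 was the one member that passed the test between constructs. In 22Rv1DR controls it stood at 15.2 FPKM in both libraries, with construct 1 at 10.5 and 13.7 FPKM on the lanes of 4B and at 12.5 FPKM in 5B, and with construct 2 at 17.1 and 15.3 FPKM. By library, construct 1 was below and construct 2 above both controls, but the lanes of 5C (15.0 and 15.7 FPKM) lay within the range of the control lanes (14.4 to 16.0 FPKM). Construct 2 exceeded construct 1 by 0.40 ± 0.06 on the log2 scale (limma, adjusted p = 0.00476, 11.6% of all genes called). Against control, construct 1 gave -0.31 ± 0.06 (adjusted p = 0.00448 in limma) and construct 2 gave 0.09 ± 0.06 (adjusted p = 0.263 in limma). The difference between constructs was 0.32 without 4C (adjusted p = 0.00354 in limma) and 0.48 without 5C (adjusted p = 0.000154), and it missed the threshold without 4B (0.37, adjusted p = 0.0560) and with 22Rv1DR fitted alone (adjusted p = 0.103). NXT1 is also the member whose lanes differed most, by up to 0.39 on the log2 scale, against a median of 0.03 over all members and libraries.

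**Figure D3:**
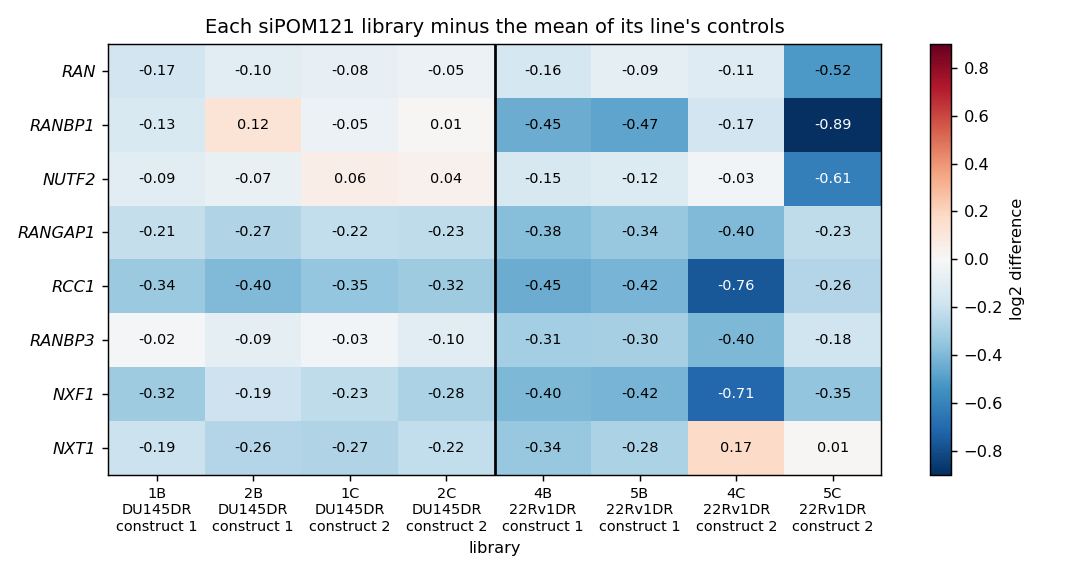
Log2 difference of each siPOM121 library (columns) from the mean of the controls of its line, for each member (rows), with the value printed in each cell and blue for lower. RAN, RANBP1 and NUTF2 are lowest in 5C, RCC1 and NXF1 are lowest in 4C, and NXT1 is above 0 only in 4C and 5C.

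Between libraries 4C and 5C the members differed in both directions. From 4C to 5C, RANBP1 differed by -0.72, NUTF2 by -0.59, RAN by -0.40 and NXT1 by -0.16 on the log2 scale, while RCC1 differed by 0.50, NXF1 by 0.35, RANBP3 by 0.23 and RANGAP1 by 0.17. Only 2.24% of all genes differed more between these libraries than RANBP1, 4.02% more than NUTF2 and 5.99% more than RCC1, in either direction, against 10.9% for RAN, 15.1% for NXF1, 33.7% for RANBP3, 46.1% for RANGAP1 and 48.4% for NXT1. The last 3 were thus ordinary for this pair. In the other 5 pairs the widest differences were those of RANBP1 in DU145DR (0.38 between controls and 0.26 with construct 1), and the next was RCC1 between the DU145DR controls (-0.14). The 4C and 5C libraries carry the same labels apart from the replicate, and what set them apart was not tested.

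Over all 12 libraries, 4C and 5C included, RAN, RANBP1 and NUTF2 were correlated with each other once the mean of each line was removed, and so were RCC1, RANGAP1, NXF1 and RANBP3, while NXT1 followed neither set closely. Pearson's r was 0.94 between RAN and NUTF2, 0.85 between RAN and RANBP1 and 0.82 between RANBP1 and NUTF2. Among RCC1, RANGAP1, NXF1 and RANBP3 it ranged from 0.88 to 0.96. Between the sets it was 0.05 to 0.40, and NXT1 reached at most 0.50, with RANGAP1. Over the 10 libraries without 4C and 5C the picture was another. There NXT1 followed RCC1 (r = 0.98), RANGAP1 (0.97) and NXF1 (0.92), RAN had an r of 0.79 with RANGAP1 and 0.80 with RCC1, and NUTF2 had 0.76 with RAN and 0.60 with RCC1. Within the first set it was 0.68 between RAN and RANBP1 and 0.56 between RANBP1 and NUTF2, against 0.82 between RAN and NXF1 of the other set. The low values of NXT1 and between the sets were therefore seen only with 4C and 5C included. Without them RAN, RANBP1 and NUTF2 did not stand apart as a set. These values describe libraries that share the treatments and the scaling of FPKM. Of the words searched in the promoters, the E-box was in RAN and in RCC1, and the ETS core in NUTF2 and in RANGAP1, RCC1 and NXT1. RANBP1 had no promoter entry, and the part of promoter sequence in these correlations was not tested.

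Other genes with the most similar pattern, among 8707 candidates with a mean of at least 5 FPKM, differed between the sets too. Highest for RAN were U2AF1, PHB and EIF4A1 (r = 0.98 for each), for NUTF2 the export adaptor SARNP, C14orf166 and RYK (0.97 to 0.98), and for RANBP1 MRPS21, ARPC3 and BRD7 (0.90 to 0.91). Highest for RANGAP1 were the splicing factors PRPF31 and U2AF2 and IFRD2 (0.98 to 0.99), for RCC1 SF3A1, FARSA and DUS3L (0.98), for NXF1 BRMS1, MFN2 and ATAD3A (0.98 to 0.99), and for RANBP3 RBM10, SCRIB and SLC27A4 (0.97 to 0.98). NXT1 was closest to PCGF1 (0.99), ETS2 and BOD1 (both 0.96). The measure is Pearson's r over the same 12 libraries, taken over many candidates, and is given as a description that includes 4C and 5C.

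The difference between the lines was tested as the 22Rv1DR effect minus the DU145DR effect. No member passed (limma; 24.8% of all genes tested did, and RANBP3 alone had an unadjusted p under 0.05). RANBP3 had the smallest adjusted p, at -0.24 ± 0.10 (limma, adjusted p = 0.0980), with an interval from -0.46 to -0.02. RANBP1 had the widest interval, from -1.08 to 0.11 around -0.48. RANGAP1 and RCC1, called in both lines, gave line differences of -0.11 (interval -0.28 to 0.06) and -0.12 (interval -0.47 to 0.23). This answer changed with 4C and 5C, as did the count of all genes called. When single libraries were left out, RAN ran from -0.22 to -0.017, RANBP1 from -0.67 to -0.29 and RCC1 from -0.25 to 0.0044. Leaving out 4C or 5C leaves 1 library of construct 2 in 22Rv1DR, so their difference drops out of the error. Without both, 2 members passed (RANBP3 at -0.25, adjusted p = 0.0273, and NUTF2 at -0.12, adjusted p = 0.0245, in limma).

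The rest of the pathway was read through lists of genes by role. Factors that prepare mRNA for NXF1 (the TREX and TREX-2 complexes, their helicases and adaptors, and nuclear cap-binding proteins) numbered 21, all tested. In DU145DR 3 of the 21 fell and none rose (median -0.05), against 23.9% of all genes called and 9.37% lower: the helicase DDX39A (-0.34 ± 0.06), the THO subunit THOC1 (-0.27 ± 0.05) and the adaptor ALYREF (-0.22 ± 0.07). In 22Rv1DR 12 fell and none rose (median -0.15), against 35.5% of all genes called and 20.4% lower, led by DDX39A (-0.62 ± 0.06, limma, adjusted p = 0.000174), the TREX-2 scaffold MCM3AP (-0.40 ± 0.04), DDX39B (-0.32 ± 0.04) and the cap-binding protein NCBP1 (-0.28 ± 0.04). Between the lines, 6 of these genes had a more negative effect in 22Rv1DR by the interaction test, among them MCM3AP (-0.30 ± 0.06) and THOC3 (-0.24 ± 0.05). That share was near the 24.8% of all genes called in either direction, of which those more negative made up 15.9% of all genes tested. In DU145DR 1 fell without 1A or 2A, 2 fell without any 1 of 1B, 2B, 1C, 4A, 5A, 4B and 5B, and 6 or 7 fell and 1 rose without 4C, 5C or both. In 22Rv1DR 7 fell without 5A, and 15 fell and 2 rose without 4C. The interaction test called 2 without 2A or 5A, 4 without 1C, 2C, 4A, 4B or 5B, and 10 lower and 3 higher without 4C.

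At the cytoplasmic face of the pore, where the helicase DDX19 and its activator GLE1 strip NXF1 from the mRNA, 12 genes were tested, NXF1 paralogs included. In DU145DR only RAE1 fell (-0.31 ± 0.09), against 9.37% of all genes lower. In 22Rv1DR 4 of the 12 fell and none rose (median -0.12), with 35.5% of all genes called there in either direction and 20.4% lower. They were NUP214 (-0.39 ± 0.06), GLE1 (-0.31 ± 0.06), NUP98 (-0.19 ± 0.04) and NUP88 (-0.14 ± 0.03). The 9 genes that sumoylate RANGAP1 or otherwise serve the cycle gave no call in DU145DR, against 23.9% of all genes called. In 22Rv1DR the sumoylation enzyme subunit SAE1 (-0.38 ± 0.05) and the RAN-binding factor RANGRF (-0.32 ± 0.07) fell, and 2 rose, among them SUMO2 (0.15 ± 0.04). Of all genes tested there, 20.4% were lower and 15.2% higher. RANBP2, the pore protein that holds RANGAP1, belongs to both of these lists and passed in neither line. Leaving out any 1 of the 6 DU145DR libraries ended the RAE1 call in that line, whereas without 4C, 5C or both 5 of the 12 genes at the cytoplasmic face fell and 1 rose there, and 2 of the 9 cycle genes rose and 2 fell. In 22Rv1DR 5 of the 12 fell without 4C and 7 fell and 1 rose without 5C, and without 5A 1 of the 9 rose and 1 fell.

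Of 26 tested importins, exportins and importin alpha adaptors, 9 fell and none rose in DU145DR (median -0.10, against 9.37% of all genes lower), with XPO5 (-0.30 ± 0.06), IPO4 (-0.39 ± 0.07), IPO5 (-0.19 ± 0.04) and TNPO3 (-0.21 ± 0.05) at the smallest p. In 22Rv1DR 11 fell and 4 rose (median -0.12, against 20.4% of all genes lower). KPNB1, the importin beta that carries most classical cargo, fell there (-0.40 ± 0.04, limma, adjusted p = 0.000179), as did XPO6 (-0.30 ± 0.04) and IPO4 (-0.54 ± 0.07), and the adaptor KPNA5 rose (0.85 ± 0.11). In the interaction test 5 of these carriers had a more positive and 2 a more negative effect in 22Rv1DR, near the 24.8% of all genes called; the smallest p were those of KPNA3 (0.42 ± 0.08), TNPO1 (0.49 ± 0.09) and IPO9 (-0.34 ± 0.07). The counts of carriers in this test changed without 2A, 5A or 5C, as did that of all genes called, so such shifts were not particular to the carriers. In DU145DR 2 carriers fell without 1A or 2A, 6 without 1B, and 13 fell and 1 rose without 4C, 5C or both. With 22Rv1DR fitted alone 5 fell and 2 rose there.

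A further list held 7 spindle factors that RAN-GTP frees from importins in mitosis. In DU145DR only the kinesin KIFC1 passed, and it rose (0.13 ± 0.04, limma, adjusted p = 0.0497), against 14.5% of all genes higher. No spindle factor was called higher when any single library other than 4C or 5C was left out, or with quantile or median scaling, and without 4C, 5C or both 1 was higher and 1 lower. In 22Rv1DR all 7 fell (median -0.36), against 20.4% of all genes lower. The smallest p were those of TPX2 (-0.59 ± 0.04, limma, adjusted p = 3.88e-05), KIFC1 (-0.52 ± 0.04), CHD4 (-0.37 ± 0.04) and HMMR (-0.33 ± 0.05). The interaction test was passed by 6 of the 7 (4 without 2A or 4A, 7 without 4C or 5C), with KIFC1 at -0.65 ± 0.06 and TPX2 at -0.51 ± 0.06. Constructs differed as well in 22Rv1DR, where NUSAP1 (0.48 ± 0.05), HMMR (0.46 ± 0.05), KIFC1 (0.40 ± 0.05) and TPX2 (0.34 ± 0.05) were higher with construct 2 than with construct 1. Of all genes tested, 24.8% passed the interaction test and 11.6% the test between constructs in 22Rv1DR. Without 4A or 5A 5 of the 7 fell in 22Rv1DR, and with that line fitted alone 4 did. These lists were put together with earlier results known, so their counts describe and do not test them.

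**Figure D4:**
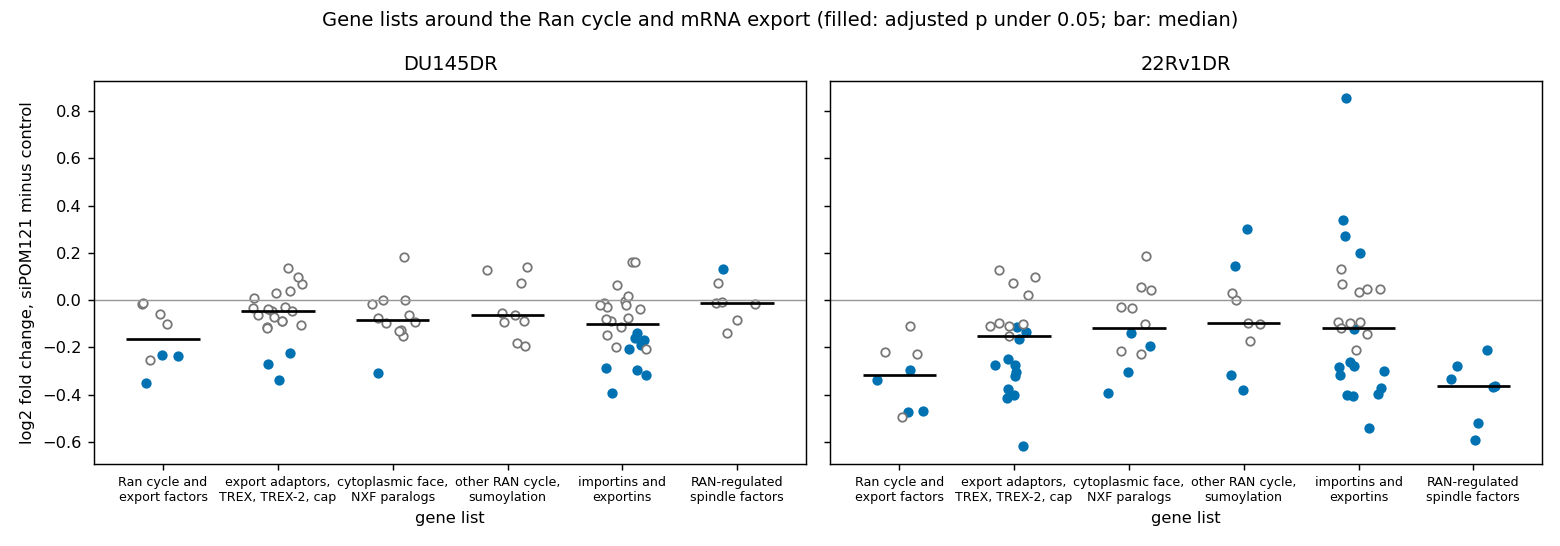
Limma's log2 fold change of siPOM121 against control (y axis) for the 8 members and the genes of 5 related lists (x axis) in DU145DR (left) and 22Rv1DR (right); filled points passed the adjusted p of 0.05 and bars are list medians. All 7 spindle factors are filled and below 0 in 22Rv1DR, with a median of -0.36, and 12 of 21 export adaptors are filled there, where 20.4% of all genes were called lower.

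Several members share sequence or position with other genes, and the library kit does not keep the strand. RCC1 overlaps SNHG3, a noncoding host gene of small nucleolar RNAs on the same strand. SNHG3 was at 18.1 FPKM in both 22Rv1DR controls (4A and 5A), 13.0 and 14.9 FPKM with construct 1 and 19.9 and 17.1 FPKM with construct 2 (4C and 5C). It was below both controls with construct 1 and in 5C, as was RCC1, but not in 4C, where RCC1 was lowest. In DU145DR SNHG3 was at 30.7 and 36.0 FPKM in controls and 28.1 to 29.5 FPKM with siPOM121, all below both controls, as was RCC1; the part of shared reads was not tested. RANBP1 overlaps TRMT2A, NUTF2 overlaps CENPT and NXT1 overlaps a noncoding RNA, each on the opposite strand, and reads of such partners cannot be told apart by strand. RAN has 9 pseudogenes named after it in GENCODE v29, NUTF2 7 and NXT1 1, so their levels are uncertain to the extent that reads were shared. FPKM is a share of each library, so a lower value cannot be told apart from a rise of other transcripts, and in these bulk cultures fewer cells of a kind and less RNA per cell cannot be told apart.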

How the data were processed

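Per the submitters' processing notes, reads were aligned with TopHat and quantified with Cufflinks, with builds hg19 and mm10 named. The authors' deposited table holds log2 FPKM per gene symbol and sample: all 305952 values above 0 are powers of 2 with 6 significant digits within 0.02 units of the last, and no level at or below 1 FPKM is kept, 0 standing in its place. Counts are not in the table, so the depth per sample is unknown and no counting interval is given. Of 27026 lines, repeated symbols (605) kept the line with the highest mean; no member was repeated. Lane values (2 per library, log2) were averaged. A gene was tested when above the floor on both lanes of at least 2 libraries (13622 genes). Limma 3.58.1 in R 4.3.3 fitted 1 mean per group over 12 libraries (6 residual degrees of freedom, trend and robust options, 2-sided), with Benjamini-Hochberg adjustment over all genes tested and a threshold of 0.05, for 10 comparisons. Fold changes are differences of log2 values, errors are moderated SE and intervals are 95%. The fit was tested on simulated data.

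The members and the gene lists were chosen with earlier results of these data known. All members are named; from the other lists, up to 4 genes per comparison with the smallest p among those past the threshold; and per member the 3 genes of the highest Pearson r. SNHG3 and the correlation without 4C and 5C were chosen after values were seen. In all, 25 alternatives were run: log2(FPKM + 1), other filters, quantile and median scaling, plain variance options, array weights, a replicate block, each line alone, either lane, each library left out, and, added after seeing the data, both construct 2 libraries of 22Rv1DR left out. Values of some genes of the marker and pathway lists are not reported here.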

Additional observations from a re-analysis of the deposited data

Results flagged for a closer look

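RCC1 in the DU145DR controls had a lane that lay away from the others: lane 2 of library 2A gave 5.87 on the log2 scale, far below the other 3 control lanes for the gap the group's range allows. It was the only such sample among 48 groups of member values examined. Chance would give about 1 in 20 groups if the 4 values were independent, which lanes of a library are not. The 4 values are 2 lanes each of 2 libraries.

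NXT1 differed between the constructs in 22Rv1DR, by 0.40 on the log2 scale (construct 2 minus construct 1), a difference that was itself tested with limma and passed. The other 7 members did not pass that test. POM121 stood at 7.68 and 7.81 FPKM with construct 1 and 6.73 and 7.43 FPKM with construct 2 in those libraries.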

How the results depend on the processing

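Over 1968 member values under the alternatives, 1719 kept direction and side of the threshold, 112 lost the call, 98 gained it and 39 changed sign, none of them called in the reported fit. Members called in DU145DR (3) numbered 0 to 5 and in 22Rv1DR (4) numbered 2 to 8 when single libraries were left out; for constructs 1 and 2 against control the ranges were 0 to 6 and 0 to 4 in DU145DR and 2 to 8 and 2 to 6 in 22Rv1DR, for construct 2 minus construct 1 in 22Rv1DR 0 to 4, for the line difference 0 to 5, and for the control lines 5 to 8. Without both construct 2 libraries of 22Rv1DR the members called were 5 in DU145DR (6 with construct 1, 4 with construct 2), 8 in 22Rv1DR (8 with construct 1), 2 for the line difference, where NXT1 turned to -0.076, and 8 between control lines. With each line fitted alone, 22Rv1DR had 1 member called, 0 for each construct and 0 between constructs. On higher-numbered lanes the members called were 1 in DU145DR, 0 for each construct there, 3 for construct 1 in 22Rv1DR and 0 between its constructs; on lower-numbered lanes they were 1 for construct 2 in DU145DR and 3 for construct 2 in 22Rv1DR. Array weights gave 4 for each construct in DU145DR, 2 for construct 2 in 22Rv1DR and 0 between its constructs, median centring 4 for each construct in DU145DR, and quantile normalization 1 for each. The cause of these changes was not tested.

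Values that changed sign are given as log2 fold changes. For RANBP1 in DU145DR they were -0.20 to 0.17 when single libraries were left out (-0.19 to 0.18 for construct 1, -0.21 to 0.17 for construct 2, -0.15 to 0.11 between constructs), 0.010 for construct 1 with quantile normalization, 0.027 for construct 1 on lower-numbered lanes, and 0.0087 for construct 2 and 0.045 between constructs on higher-numbered lanes. For RANBP3 in DU145DR they were -0.12 to 0.0046 (-0.12 to 0.0095 for construct 1, -0.046 to 0.026 between constructs, 0.015 between constructs on lower-numbered lanes). Between constructs in DU145DR they were -0.0094 to 0.045 for RANGAP1 (-0.015 with quantile normalization), -0.00064 to 0.060 for RCC1 (-0.00038 with quantile normalization), -0.069 to 0.064 for NXF1 (0.039 on lower-numbered lanes) and -0.053 to 0.020 for NXT1 (0.11 on higher-numbered lanes). Between constructs in 22Rv1DR they were -0.39 to 0.010 for RAN, -0.43 to 0.29 for RANBP1, -0.037 to 0.13 for RANGAP1, -0.33 to 0.17 for RCC1, -0.099 to 0.13 for RANBP3 (-0.021 on higher-numbered lanes), -0.48 to 0.11 for NUTF2 and -0.30 to 0.056 for NXF1; each range runs between leaving out 4C and leaving out 5C. RCC1 gave -0.25 to 0.0044 for the line difference and 0.034 between control lines with median centring.

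Over all genes, same-numbered libraries did not deviate together (r from -0.10 to 0.13), so the numbers were not taken as pairs. In DU145DR, however, RAN and RANBP1 were higher and RANGAP1 and RANBP3 lower in library 2 than in 1 of every group. For RANBP1 this was 0.38 in controls, 0.26 with construct 1 and 0.06 with construct 2 (log2). The other members there differed in sign between groups. In 22Rv1DR only RCC1 and RANBP3 kept a sign, higher in library 5 than in 4. With the replicate block 3 members were called in DU145DR, 5 in 22Rv1DR, where RANBP1 was added (adjusted p = 0.0434), and 4 for construct 2 in 22Rv1DR, where RAN was not called (adjusted p = 0.0527); other member calls were as without it. Over all genes the share higher among called genes moved with scaling by over 10 points for construct 2 in DU145DR (66.1% to 54.3% with quantile normalization), and with median centring in 22Rv1DR (42.7% to 53.0%; 44.1% to 55.1% for construct 1, 63.0% to 52.1% between constructs) and for the line difference (36.0% to 47.8%). Counts of all genes called ranged from 1551 to 5160 in DU145DR (3253 in the reported fit) and from 2065 to 7016 in 22Rv1DR (4842). Groups of 2 libraries of unknown depth limit how small a change could be called.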
